A study of Homo sapiens with 6 samples.

Results

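The mitotic kinases PLK1, PLK4, AURKA, AURKB, BUB1, BUB1B, TTK, NEK2, CDK1 and MASTL were followed in RNA sequencing of HCT116 cells, a human colorectal carcinoma line. They were chosen by gene symbol, with earlier results of these data known, for how they changed within same-numbered library pairs and for how well the pairs agreed. All 10 were listed among 17047 genes in the deposited table, and all 10 were among the 12959 genes that passed the filter on low counts. The study asked how loss of PLEK2, a pleckstrin-family protein, alters the transcriptome of colorectal cancer cells. Cells that carried a non-targeting shRNA (shNC, 3 libraries) were compared with cells that carried an shRNA against PLEK2 (PLEK2 shRNA, 3 libraries). Both hairpins were delivered by lentivirus from the pLKO.1 vector, so the controls were transduced too, and neither a harvest time nor separate cultures are given in the sources used here. A single PLEK2 hairpin is listed, so its effects on other genes cannot be told apart from loss of PLEK2, and p-values measure only the spread between these libraries, which may be technical.

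These kinases order the steps of cell division. CDK1 with its cyclins drives entry into mitosis, and MASTL (Greatwall) protects the phosphates that CDK1 places by holding a PP2A phosphatase in check. PLK1, AURKA and NEK2 act at centrosomes and the spindle, PLK4 duplicates centrioles, AURKB is the catalytic subunit of the chromosomal passenger complex, and TTK, BUB1 and BUB1B run the spindle checkpoint that delays anaphase until every kinetochore is attached. Their mRNAs are most abundant in G2 and mitosis in dividing cells. In bulk RNA, fewer cells in those phases and less RNA per cell cannot be told apart.

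Library totals lay between 14377532 and 15602732 estimated counts. All 6 epithelial markers examined were present in every library, EPCAM at 152 to 172 FPKM (a level per transcript length and library total) and KRT8 at 1822 to 2573 FPKM. The 5 markers of other cell types that were measured summed to 7.53 to 9.93 FPKM in shNC and 7.19 to 8.75 FPKM in PLEK2 shRNA, nearly all of it COL1A1 and ACTA2, while PECAM1, COL3A1 and ALB stayed at or under 0.06 FPKM. PLEK2 itself stood at 86.0, 72.6 and 82.9 CPM (counts relative to the TMM-scaled library total) in shNC replicates 1 to 3 and at 16.0, 32.2 and 34.9 CPM in the same-numbered PLEK2 shRNA libraries. The deepest loss was in replicate 1, and the groups did not overlap. In edgeR's quasi-likelihood test with the replicate number as a block, the log2 fold change of PLEK2 was -1.57 with a standard error of 0.17 and an adjusted p of 0.00106. Without the block, its adjusted p was 0.684.

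The hairpin's target is shown because its seed site also occurs in mRNAs of the kinases. Capitals mark the 7 bases that pair with guide bases 2 to 8.
PLEK2 target of the shRNA: gctggtgtactacAAGCTTGa
PLEK2 lies at chr14:67386984-67412167 on the minus strand (GENCODE 44, GRCh38). The site AAGCTTG occurred 1 time each in the canonical transcripts of AURKA, BUB1, TTK and NEK2, and in none of the other 6 kinases, PLK1 included. Among 12454 tested genes with a canonical transcript, 19.8% held it. The longest uninterrupted match of the target to any of the 10 kinase transcripts was 8 bases, against all 21 in PLEK2.

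Of the 10 kinases, PLK1 showed the largest difference between the groups. PLK1 (chr16:23677656-23690367, plus strand) phosphorylates centrosome, kinetochore and cohesin proteins through mitosis. It measured 253, 246 and 226 CPM in shNC replicates 1 to 3 and 149, 208 and 182 CPM in PLEK2 shRNA replicates 1 to 3. Every PLEK2 shRNA library was below every shNC library, and the lowest was PLEK2 shRNA replicate 1. Its log2 ratio within same-numbered pairs was -0.76, -0.24 and -0.32, with a mean of -0.44 ± 0.28 (SD, n = 3 pairs), a mean ratio of 0.737. This contrast was used to choose the genes, so it is a description and carries no test. Pair 1 held the largest PLK1 difference and also the largest PLEK2 difference (log2 ratios of -2.42, -1.17 and -1.25 for PLEK2), and without pair 1 the PLK1 mean was -0.28. PLK1 rested on 2345 to 3877 counts per library, all whole numbers. Its exons share 553 bases with an antisense long noncoding RNA and 58 bases with ERN2 on the opposite strand. ERN2 had at most 5 counts in a library, and whether the counting used strand is not given in the sources used here.

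**Figure D1:**
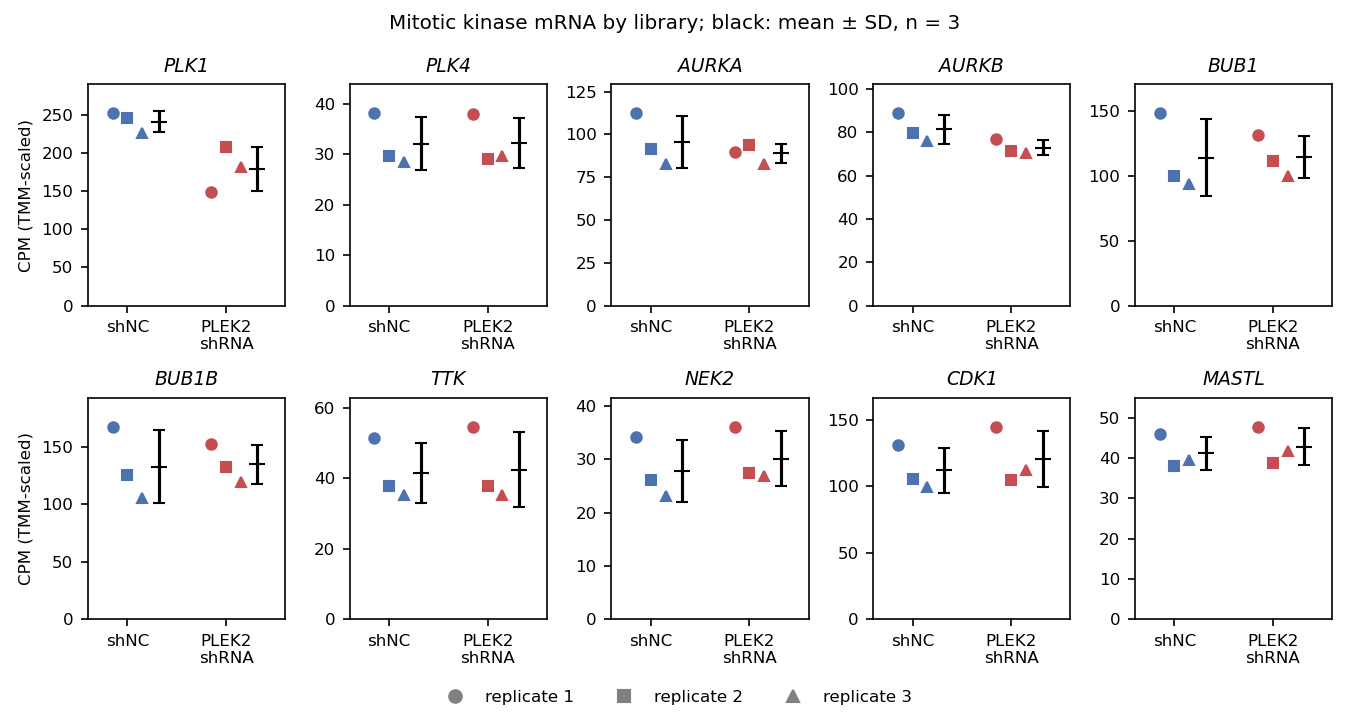
TMM-scaled CPM (y axes, from 0) of each kinase in the 3 shNC (blue) and 3 PLEK2 shRNA (red) libraries, with symbols for the replicate number and black bars for mean ± SD. PLK1 is the only kinase of the 10 whose groups do not overlap, and in most other panels replicate 1 stands above replicates 2 and 3 in both groups.

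The Aurora kinases came next in the direction of PLK1. AURKB (chr17:8204733-8210600, minus strand) measured 88.8, 79.5 and 76.0 CPM in shNC and 76.7, 71.4 and 70.6 CPM in PLEK2 shRNA. It was lower in all 3 pairs, by a similar amount each time, but the groups overlapped because PLEK2 shRNA replicate 1 lay above shNC replicate 3. The mean log2 ratio of AURKB was -0.16 ± 0.05 (SD, n = 3 pairs). AURKA (chr20:56369389-56392337, minus strand), which is activated on spindle microtubules by TPX2, measured 112, 91.3 and 82.8 CPM in shNC and 90.0, 93.9 and 82.8 CPM in PLEK2 shRNA. The log2 ratio of AURKA was -0.32 in pair 1, 0.041 in pair 2 and -9.4e-05 in pair 3, so a single pair carried its mean of -0.093 ± 0.20 (SD, n = 3 pairs). Without pair 1 the AURKA mean was 0.020, and in 1 library its estimated count was not whole.

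The checkpoint kinases showed no common direction between shNC and PLEK2 shRNA. BUB1 (chr2:110637528-110678063, minus strand), which phosphorylates histone H2A at centromeres, measured 148, 100 and 94.0 CPM in shNC and 132, 112 and 100 CPM in PLEK2 shRNA. BUB1B (chr15:40161023-40221123, plus strand) encodes BubR1, a subunit of the complex that inhibits APC/C, and measured 168, 126 and 105 CPM against 153, 133 and 119 CPM. Both genes were lower in pair 1 and higher in pairs 2 and 3. The mean log2 ratio was 0.028 ± 0.17 for BUB1 (SD, n = 3 pairs), and 0.13 without pair 1. For BUB1B it was 0.042 ± 0.16 (SD, n = 3 pairs), and also 0.13 without pair 1. TTK (chr6:80003887-80042527, plus strand), the kinase that phosphorylates KNL1 to start checkpoint signalling, measured 51.4, 38.0 and 35.3 CPM in shNC and 54.7, 37.8 and 35.1 CPM in PLEK2 shRNA. TTK was nearly level in pairs 2 and 3, with a mean log2 ratio of 0.025 ± 0.056 (SD, n = 3 pairs) that became -0.0071 without pair 1. BUB1B shares 240 exon bases with PAK6 and 217 with the readthrough gene BUB1B-PAK6 on the same strand. BUB1B-PAK6 held 815 to 1025 estimated counts, none of them whole in any library, while the counts of BUB1B were whole in all 6 libraries.

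CDK1, MASTL, NEK2 and PLK4 had small mean log2 ratios above 0. CDK1 (chr10:60778331-60794852, plus strand) measured 131, 105 and 99.1 CPM in shNC and 145, 104 and 112 CPM in PLEK2 shRNA, with a mean log2 ratio of 0.10 ± 0.10 (SD, n = 3 pairs). MASTL (chr10:27154824-27187953, plus strand) measured 46.0, 38.0 and 39.6 CPM against 47.8, 38.8 and 41.9 CPM. MASTL was higher in all 3 pairs by little, with a mean log2 ratio of 0.056 ± 0.026 (SD, n = 3 pairs). Its estimated counts were not whole in any library. MASTL exons share 443 bases with YME1L1 and 327 with ACBD5, both on the opposite strand, and YME1L1 held 3638 to 4409 estimated counts.

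NEK2 (chr1:211658657-211675630, minus strand), which loosens the linker between centrosomes, measured 34.3, 26.0 and 23.1 CPM in shNC and 36.1, 27.5 and 26.9 CPM in PLEK2 shRNA. NEK2 was higher in all 3 pairs and had the highest mean log2 ratio of the 10, 0.12 ± 0.08 (SD, n = 3 pairs), although its groups overlapped. NEK2 counts were not whole in 3 libraries. PLK4 (chr4:127880893-127899224, plus strand) measured 38.1, 29.6 and 28.5 CPM against 38.0, 29.1 and 29.6 CPM. Its mean log2 ratio of 0.0077 ± 0.040 (SD, n = 3 pairs) was the closest to 0 among the 10 kinases.

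**Figure D2:**
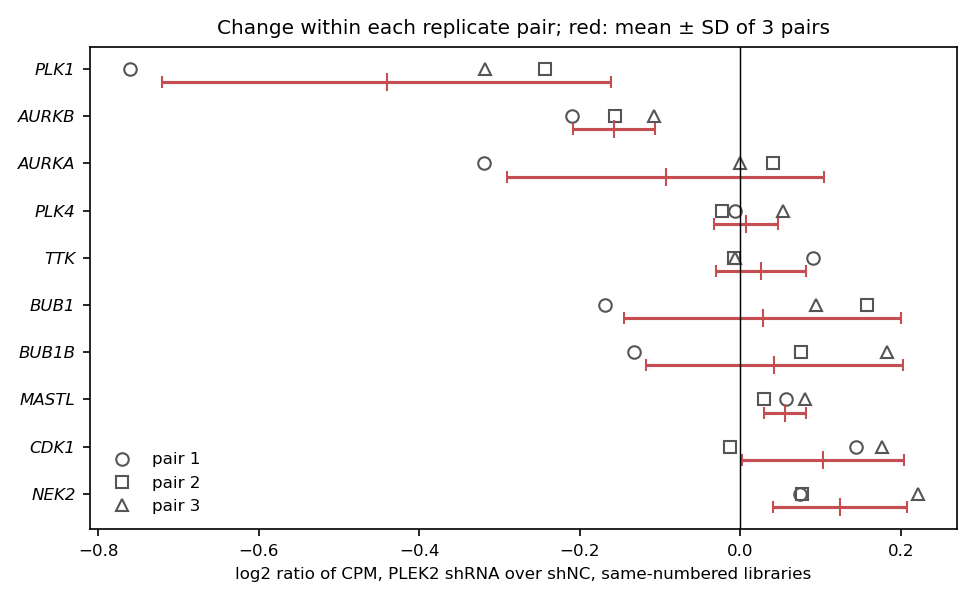
Log2 ratio of CPM, PLEK2 shRNA over shNC, within each same-numbered pair (x axis) for the 10 kinases ordered by their mean; open symbols are pairs 1 to 3 and red bars mean ± SD of 3 pairs. PLK1 has a mean of -0.44 and its 3 pairs lie apart from those of every kinase except pair 1 of AURKA, while NEK2 ends the order at 0.12.

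In all, 2 kinases were lower in every pair (PLK1 and AURKB), 2 were higher in every pair (NEK2 and MASTL) and 6 were mixed. Over the 12945 tested genes with a count in every library, 21.1% were lower and 19.9% higher in every pair. Groups that do not overlap were found for 1 of the 10 kinases and for 9.21% of those genes. The median of the kinases' mean log2 ratios was 0.0265, against -0.00153 over all those genes. By pair, the median over the kinases was -0.069, 0.011 and 0.067 in pairs 1 to 3, and the same median over all genes was 0.00099, -0.0044 and -0.00083. Since the kinases were chosen on these ratios, nothing further is read from the counts. In the test of all genes without the replicate block, edgeR called 0 of 12959 genes (0%) at an adjusted p under 0.05, with 400 at an unadjusted p under 0.05, and DESeq2's Wald test called 12. With the block, edgeR called 110 genes (0.849%).

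Most of these kinases differed between replicate numbers. In a fit with group and replicate number, edgeR's quasi-likelihood test of the number called 7 of the 10 kinases, against 3684 of 12959 genes tested (28.4%). The spread in that test includes each gene's own disagreement between pairs, which the choice of the genes used, so its p-values are not independent of the choice. A test added after seeing the data used only the spread shared by genes of like level. It also called 7 of the 10, against 26.6% of all genes, with AURKA (adjusted p = 0.0365) in place of MASTL (adjusted p = 0.0560). With each gene's own spread included, edgeR's adjusted p was 0.000511 for TTK, 0.00125 for BUB1, 0.00149 for BUB1B, 0.00186 for CDK1, 0.00306 for NEK2, 0.00564 for PLK4 and 0.0323 for MASTL. All 7 were highest in replicate 1. So 7 of the 10 kinases were both called and highest in replicate 1. Both held for 2008 of the 12945 genes with a count in every library (15.5%). TTK was 1.45-fold, BUB1 1.38-fold and NEK2 1.36-fold higher in replicate 1 than in the mean of replicates 2 and 3, and MASTL 1.18-fold. Over the 10 kinases the median of this log2 difference was 0.38, against -0.012 over all genes. In 8 of the 10, replicate 1 was the highest library within shNC and within PLEK2 shRNA alike. The same count over all genes was not made, so nothing further is read from it.

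PLK1, AURKA and AURKB did not pass edgeR's test of the number, with adjusted p of 0.227, 0.0637 and 0.145. With the shared spread only, the adjusted p was 0.0720 for PLK1 and 0.187 for AURKB. PLK1 differed in direction as well, since its mean in replicate 1 was 0.906 of that in replicates 2 and 3, and the low value was PLEK2 shRNA replicate 1 alone. PLK1 passed when shNC replicate 1 was left out (adjusted p = 0.000264) or PLEK2 shRNA replicate 1 was left out (adjusted p = 0.0382). The replicate 1 library that remained was the lowest of the 5 in the former fit and the highest of the 5 in the latter, so these passes do not show a common difference in replicate 1. Leaving out a library leaves its number with a single library, which is assumed to vary like the others. AURKA passed without PLEK2 shRNA replicate 1 (adjusted p = 0.000831) or replicate 3 (adjusted p = 0.0429). MASTL no longer passed without shNC replicate 1 (adjusted p = 0.0559), shNC replicate 2 (0.119), PLEK2 shRNA replicate 1 (0.0817) or PLEK2 shRNA replicate 2 (0.172).

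**Figure D3:**
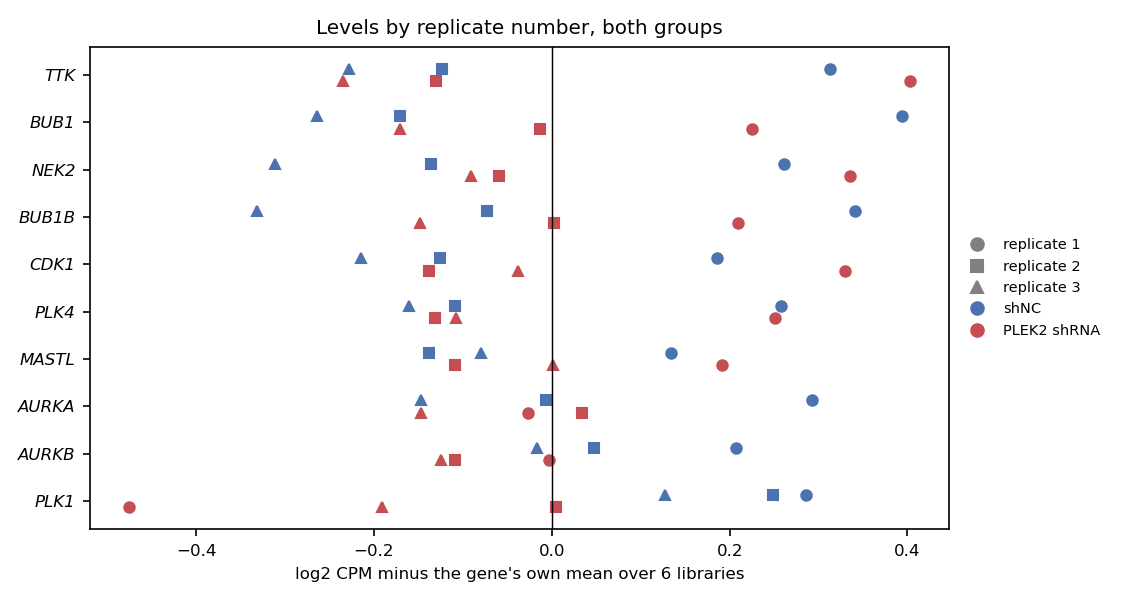
Log2 CPM of each kinase minus its own mean over the 6 libraries (x axis), by replicate number (symbols) and group (colours), ordered by how far replicate 1 lies above replicates 2 and 3. Both replicate 1 libraries lie right of 0 for the 7 kinases at the top, and the PLK1 row at the bottom parts by group.

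Per transcript length, PLK1 was the most abundant of the 10 kinases, at 98.3 ± 17.3 FPKM (SD over 6 libraries). AURKB followed at 68.9 ± 5.56 FPKM and CDK1 at 65.6 ± 10.6 FPKM, whose ranges overlapped. AURKA came next at 43.3 ± 4.61 FPKM, with BUB1B at 37.1 ± 6.32 FPKM and BUB1 at 32.8 ± 6.10 FPKM close behind. NEK2 and TTK could not be ordered, at 14.7 ± 2.63 and 14.6 ± 3.08 FPKM, and MASTL at 10.5 ± 1.03 FPKM and PLK4 at 8.73 ± 1.27 FPKM ended the list. The ranges of neighbours in this order overlapped except between CDK1 and AURKA and between BUB1 and NEK2. PLK1 led in 5 libraries, and in PLEK2 shRNA replicate 1 CDK1 (83.4 FPKM) stood above PLK1 (71.3 FPKM). PLK1 made up 25.2%, 29.0% and 28.8% of the summed FPKM of the 10 kinases in shNC and 17.3%, 25.8% and 23.9% in PLEK2 shRNA.

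The profile of PLK1 over the 6 libraries lay apart from those of the other kinases. Profiles were compared by the root-mean-square distance of log2 CPM centred on each gene's mean, over 9736 genes with a mean of at least 10 CPM. From the mean profile of the 10 kinases, PLK1 lay at 0.309 and the other 9 at 0.0561 (PLK4) to 0.125 (TTK). These distances include the differences between the groups on which the kinases were chosen, so they are a description. The kinases nearest to PLK1 were AURKB at 0.226 and AURKA at 0.239. The genes nearest to PLK1 included LARP4B at 0.0381, KCTD10 at 0.0498, VAMP3 at 0.0661 and MISP at 0.0689. LARP4B measured 197, 203 and 178 CPM in shNC and 121, 161 and 150 CPM in PLEK2 shRNA. It was low in PLEK2 shRNA replicate 1 like PLK1, which follows from its choice by nearness to PLK1. Its log2 ratios within pairs were -0.71, -0.33 and -0.25. The genes nearest to the mean profile of the 10 kinases were PAM at 0.0255, APLP2 at 0.0295, ELOVL1 at 0.0300, ATP9A at 0.0302 and AASDHPPT at 0.0306. PAM measured 217, 172 and 157 CPM in shNC and 202, 177 and 170 CPM in PLEK2 shRNA. Its high values in both replicate 1 libraries likewise follow from its choice.

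Promoters of 8 of the 10 kinases were examined because most of these genes were highest in replicate 1. Many genes of G2 and mitosis carry a cell cycle genes homology region (CHR), bound by the MuvB complex with B-MYB and FOXM1 or with p130 and E2F4, and CCAAT boxes, bound by NF-Y. RefSeq windows (GRCh38.p14) of 250 bases before to 50 after each start were searched on both strands. The letters sought were TTTGAA or TTCGAA for the CHR and CCAAT for the CCAAT box. A CHR match and a CCAAT match may share a base, which was not checked. Windows for AURKA and TTK were not used here. A CHR match was found in 6 of the 8 genes (PLK1, PLK4, BUB1, BUB1B, CDK1 and MASTL), or 7 of their 12 windows, against 16.4% of 35116 windows. A CCAAT match was found in 6 (PLK1, PLK4, AURKB, BUB1, NEK2 and CDK1), or 8 of 12 windows, against 34.6% of all windows. PLK1, BUB1 and CDK1 held both motifs in the same window, as did 6.38% of all windows. A match is a description of letters in the window and not a bound site.

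Some of the matches are shown with flanks of up to 12 bases, read along the gene's strand. They serve a comparison of PLK1 with kinases that were high in replicate 1. Other matches of these genes, some of them nearer the start, are left out. For a gene with several starts, the position counts from the start of the window that held the match. Capitals mark the motif, which reads TTCAAA or ATTGG where it lies on the opposite strand. Positions count the start base as 1, with no position 0, and bases before the start as negative.
PLK1, CCAAT at -73, chr16:23678804-23678832, plus strand: aaatccccgcggCCAATcagtggcgcgca
PLK1, CHR at -29, chr16:23678848-23678877, plus strand: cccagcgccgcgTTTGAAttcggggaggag
BUB1, CCAAT at -54, chr2:110678101-110678129, minus strand: ctgccgccgccaCCAATgggcaggcgccc
BUB1, CHR at 2, chr2:110678045-110678074, minus strand: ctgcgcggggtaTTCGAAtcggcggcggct
BUB1B, CHR at -23, chr15:40161034-40161063, plus strand: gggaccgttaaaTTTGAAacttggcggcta
CDK1, CCAAT at -46 on the opposite strand, chr10:60778420-60778448, plus strand: acgggctacccgATTGGtgaatccggggc
CDK1, CHR at -13, chr10:60778453-60778482, plus strand: tagcgcggtgagTTTGAAactgctcgcact
MASTL, CHR at 3, chr10:27155342-27155371, plus strand: gcggagcctcacTTTGAAcccagttggcgg
PLK4, CHR at 39 on the opposite strand, chr4:127880919-127880942, plus strand: cggcgggagattTTCAAAatggga
NEK2, CCAAT at -34, chr1:211675639-211675667, minus strand: gcccaccgcctgCCAATagactgcgagat
AURKB, CCAAT at -129 on the opposite strand, chr17:8210362-8210390, minus strand: accagcgcccagATTGGggctagtgtgct
PLK1 held both motifs in the same window, as did BUB1 and CDK1, while PLK4 held them in windows of different starts. Whether the motifs bear on the levels over the libraries was not tested. NEK2 held CCAAT boxes without a CHR match, and BUB1B and MASTL held a CHR match without a CCAAT box. BUB1 was the only gene of the 8 whose CHR match read TTCGAA.

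**Figure D4:**
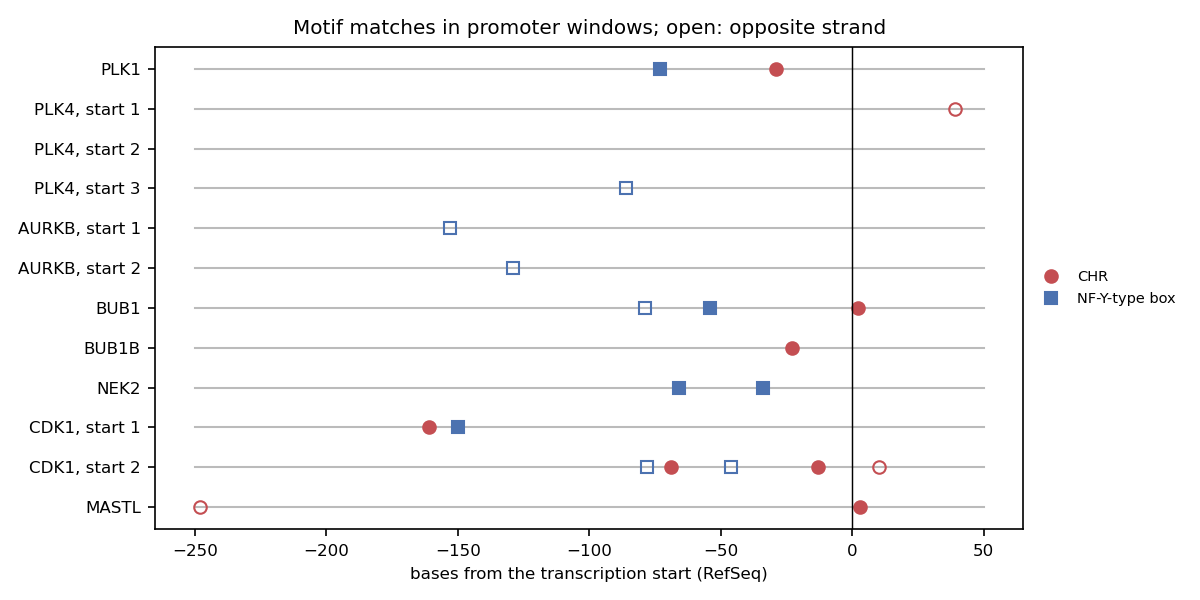
Positions of CHR matches (red circles) and boxes of the type bound by NF-Y (blue squares) relative to the RefSeq transcription start (x axis, bases) in the 12 windows of 8 kinases; filled symbols lie on the gene's strand and open symbols on the opposite strand. PLK1, BUB1 and CDK1 hold both kinds of match in the same window, and the AURKB windows show the same box from different starts.

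The partners of these kinases were examined as a list of 70 genes in 8 roles, of which 69 were tested and AURKC was not. In edgeR's test of PLEK2 shRNA against shNC, 0 of the 69 passed an adjusted p of 0.05 without the block (0% of all genes did) and 0 with it (0.849% of all genes did). At an unadjusted p under 0.05 there were 2 of the 69 without the block (2.90%, against 3.09% of all genes). With the block there were 20 (29.0%, against 18.3% of all genes), 14 of them lower and 6 higher. The list was written with earlier results of these data known, so this share is a description. A split into lower and higher was not made for all genes at this threshold. The median of the partners' mean log2 ratios was -0.0097. The groups did not overlap for 6 partners (8.70%, against 9.21% of all genes). All 6 were lower in PLEK2 shRNA, and they were CDC20, TACC3, BIRC5, PKMYT1, MYBL2 and UBE2S, the last named after its values were seen. Their share was near that of all genes. The direction was not counted over all genes, so nothing further is read from it.

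The Aurora partners had a median log2 ratio of -0.13 over 7 genes, the lowest of the 8 roles, and 4 of the 7 had an unadjusted p under 0.05 with the block, all lower. Pair 1 carried this value, since the medians by pair were -0.36, -0.050 and 0.024, and without pair 1 the median was -0.058. TACC3, which AURKA places at the spindle, measured 213, 197 and 183 CPM in shNC and 163, 181 and 172 CPM in PLEK2 shRNA. The groups of TACC3 did not overlap, its mean log2 ratio was -0.20 ± 0.16 (SD, n = 3 pairs), and its adjusted p was 0.968 in edgeR without the block and 0.123 with it. Without pair 1 the TACC3 mean was -0.11. BIRC5 (survivin), a subunit of the AURKB complex, measured 159, 153 and 158 CPM in shNC and 145, 142 and 142 CPM in PLEK2 shRNA. BIRC5 was the steadiest of the 7, with a mean log2 ratio of -0.13 ± 0.025 (SD, n = 3 pairs) and an adjusted p of 0.197 in edgeR with the block.

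The APC/C regulators and separase, which end mitosis by protein destruction and cohesin cleavage, had a median log2 ratio of -0.11 over 7 genes (-0.044 without pair 1), and 4 of them had an unadjusted p under 0.05 with the block, all lower. CDC20, the activator of APC/C that the checkpoint inhibits, measured 444, 402 and 381 CPM in shNC and 345, 375 and 361 CPM in PLEK2 shRNA. Its groups did not overlap, and the mean log2 ratio was -0.18 ± 0.16 (SD, n = 3 pairs), with an adjusted p of 0.156 in edgeR with the block. Without pair 1 the CDC20 mean was -0.088. FZR1, the activator that replaces CDC20 after anaphase, had a mean log2 ratio of -0.15 ± 0.07 (SD, n = 3 pairs).

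Among the 10 cyclins, phosphatases and inhibitory kinases of CDK1 the median log2 ratio was -0.00064, and 1 had an unadjusted p under 0.05 with the block. That gene was PKMYT1, which phosphorylates CDK1 to hold it inactive. PKMYT1 measured 102, 103 and 98.7 CPM in shNC and 73.7, 86.5 and 94.2 CPM in PLEK2 shRNA. All 3 PLEK2 shRNA libraries were lower than every shNC library, and its adjusted p of 0.0941 in edgeR with the block was the smallest of the 69. The mean log2 ratio of PKMYT1 was -0.26 ± 0.20 (SD, n = 3 pairs), and -0.16 without pair 1. CKS1B, a small subunit that binds CDK1, had a mean log2 ratio of -0.099 ± 0.15 (SD, n = 3 pairs), and -0.012 without pair 1.

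In the MASTL branch of 6 genes none had an unadjusted p under 0.05 with or without the block. ENSA, whose phosphorylation by MASTL turns it into a PP2A inhibitor, had a mean log2 ratio of 0.088 ± 0.045 (SD, n = 3 pairs), and PPP2R1A, the PP2A scaffold, -0.080 ± 0.064. Among the 6 centriole partners of PLK4, 1 had an unadjusted p under 0.05 with the block. It was CEP152, which recruits PLK4 to the centriole, at 33.4, 31.8 and 29.3 CPM in shNC and 33.3, 24.2 and 24.2 CPM in PLEK2 shRNA. CEP152 was level in pair 1 and lower in the other pairs, with a mean log2 ratio of -0.22 ± 0.20 (SD, n = 3 pairs). The CEP152 mean was -0.34 without pair 1 and -0.14 without pair 2. CCP110, which caps centrioles, had a mean log2 ratio of 0.14 ± 0.08 (SD, n = 3 pairs).

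The 14 checkpoint and kinetochore partners had a median log2 ratio of -0.0089, with 4 at an unadjusted p under 0.05 with the block, 2 lower and 2 higher. SPDL1, which links dynein to kinetochores, had a mean log2 ratio of 0.21 ± 0.04 (SD, n = 3 pairs). KNL1, the kinetochore scaffold that TTK phosphorylates, measured 74.6, 58.4 and 44.9 CPM in shNC and 76.2, 39.2 and 34.5 CPM in PLEK2 shRNA. KNL1 was level in pair 1 and lower in the other pairs, with the lowest mean of the 69 partners, -0.31 ± 0.31 (SD, n = 3 pairs). The KNL1 mean was -0.48 without pair 1 and -0.18 without pair 2. Among 8 other mitotic kinases NEK6 had a mean of -0.17 ± 0.08 and NEK7 of 0.23 ± 0.25 (SD, n = 3 pairs), the latter led by pair 1 at 0.49 and at 0.092 without it.

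The 11 regulators of mitotic gene transcription had a median log2 ratio of 0.025, with 3 at an unadjusted p under 0.05 with the block, 1 lower and 2 higher. MYBL2 (B-MYB), which joins the MuvB complex at CHR promoters, measured 302, 274 and 267 CPM in shNC and 239, 240 and 266 CPM in PLEK2 shRNA. Its groups did not overlap, but pair 3 differed by a log2 ratio of only -0.0067, and the adjusted p was 0.160 in edgeR with the block. Its mean log2 ratio was -0.18 ± 0.17 (SD, n = 3 pairs), and -0.10 without pair 1. LIN9, a MuvB subunit, had a mean log2 ratio of 0.28 ± 0.17 (SD, n = 3 pairs) and an adjusted p of 0.143 in the same test.

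**Figure D5:**
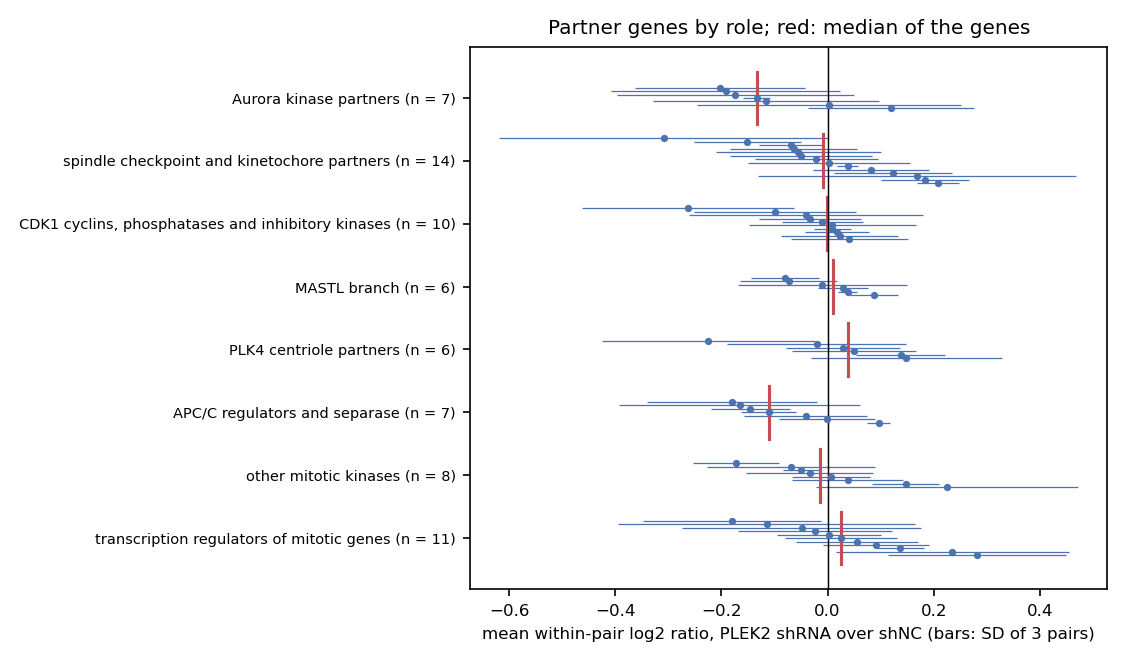
Mean log2 ratio within pairs, PLEK2 shRNA over shNC (x axis), of the 69 tested partner genes (points, with SD of 3 pairs) in 8 roles, with red bars at the median of each role. The medians of the Aurora partners (-0.13) and of the APC/C group (-0.11) lie left of the other 6 roles, and no single gene passed the adjusted threshold.

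The replicate number marked the partners unevenly. In edgeR's test of the number, 27 of the 69 passed (39.1%, against 28.4% of all genes), and 25 of the 69 passed with their highest level in replicate 1 (36.2%, against 15.5%). The exceptions were NEK6 and MAD1L1, the latter named after its values were seen. The centriole partners of PLK4 passed in 5 of 6 and the checkpoint and kinetochore partners in 10 of 14. The Aurora partners passed in 1 of 7, the APC/C group in 1 of 7, the CDK1 group in 2 of 10, the MASTL branch in 2 of 6, the other mitotic kinases in 4 of 8 and the transcription regulators in 2 of 11. KNL1 (adjusted p = 0.000366), SPDL1 and CCP110 were among those that passed, and TACC3 (adjusted p = 0.599), BIRC5 and CDC20 were not. The differences between these roles were not tested.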

How the data were processed

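RNA was taken from HCT116 cells with TRIzol, selected with oligo(dT) and read as 50-base single ends on a DNBSEQ platform. The authors deposited gene-level estimated counts, of which 84.2% to 85.4% in a library were whole numbers. The deposited table also holds per-length values with no unit in the header, read here as FPKM because the counts behind 1 unit followed the library totals. The group means that the authors deposited were not used. The submitters' processing notes name HISAT2 2.0.4, Bowtie2 2.2.5, RSEM 1.2.12, DESeq2 1.4.5 and a mouse build, although the gene identifiers are human. The build behind the counts is therefore uncertain, and positions come from GENCODE 44 and RefSeq on GRCh38.

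Kinases, partner list and tests were chosen with earlier results of these data known. Counts were rounded and filtered with filterByExpr. TMM factors lay between 0.984 and 1.021. Groups were compared with edgeR 4.0.16 (quasi-likelihood, Benjamini-Hochberg over all genes tested). Alternatives used DESeq2 1.42.0, limma 3.58.1 (R 4.3.3), other scalings, filters and FPKM + 1 on the log2 scale, each library left out, and the replicate number as a block. An alternative added after seeing the data tested the replicate number against the prior variance that edgeR fits over genes, without the gene's own residual. Figures and summaries used Python 3.11.15. Libraries were paired by the numbers in their titles, and no source states a shared day. Deviations from the group means correlated at 0.568 to 0.741 between same-numbered libraries and at -0.631 to 0.374 between others. Centring within each group lowers the correlations between different numbers by construction. Between shNC replicate 2 and PLEK2 shRNA replicate 3 the correlation was 0.374, and between shNC replicate 3 and PLEK2 shRNA replicate 2 it was 0.373. Genes named are the kinases, PLEK2, the 2 partners per role with the smallest p under the block, and the 5 genes nearest in profile, of which some are not reported here.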

Additional observations from a re-analysis of the deposited data

How the results depend on the processing

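The mean log2 ratios of PLK1 and AURKB stayed below 0 under each alternative run. Those of NEK2 (0.076 to 0.155), CDK1 (0.066 to 0.161) and MASTL (0.043 to 0.096) stayed above 0. The small means of PLK4, AURKA, BUB1, BUB1B and TTK changed sign with the pair left out. With DESeq2's size factors, library totals or FPKM the same 2 kinases, PLK1 and AURKB, were lower in every pair, and with a replicate number left out of both groups there were 3 kinases each time, PLK1 and AURKB among them. The median of the kinases' mean log2 ratios lay between -0.010 and 0.038 when a replicate number was left out, was 0.0577 with library totals, 0.0346 with size factors from DESeq2 and 0.0582 with FPKM, and was the same 0.0265 by construction as a difference of group means with no replicate block. The mean of PLK1 lay between -0.54 and -0.28 when a replicate number was left out, and that of AURKA between -0.16 and 0.020. Of 30 values for single kinases with another scaling or FPKM, 28 lay within the SD of the pairs of the value reported, and MASTL moved beyond it to 0.087 with library totals and 0.096 with FPKM.

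The replicate block changed the count of genes called between the groups. Against 0 genes without it, edgeR called 110 with the block (16 higher, 94 lower), 192 with the block and library totals (83 higher, 109 lower) and DESeq2's Wald test 57 with the block. With the block and a replicate number left out of both groups the count lay between 18 and 528, 18 without replicate 2, 297 without replicate 3 and 528 without replicate 1. Without the block DESeq2's Wald test called 12, and leaving out a library gave between 0 and 1, the gene called without PLEK2 shRNA replicate 1 being PLEK2. The cause was not tested. Over 18 alternatives the adjusted p of PLEK2 lay between 2.8e-17 and 0.9999 and was under 0.05 in 8. Partner genes called numbered 0 in each alternative without a replicate number left out under the block. There the count lay between 0 and 3, with CEP152 and KNL1 called without replicate 1 and INCENP, MYBL2 and PKMYT1 without replicate 3, INCENP being named after its values were seen.

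For the replicate number, genes called fell from 3684 to 1765 with DESeq2's likelihood ratio test. They numbered 1966 without shNC replicate 2 and 1905 without PLEK2 shRNA replicate 2, and with a library left out they lay between 1905 and 3858. Fewer libraries or another tool were the only changes made there. The kinases called numbered 6 to 8 with a library left out, 5 with DESeq2 (PLK4 and MASTL no longer passed) and 6 with limma-trend (without MASTL). They numbered 8 with library totals and with all genes of at least 1 count, where AURKA passed too (adjusted p of 0.0462 and 0.0347 in edgeR), and 7 with the shared spread only, which called 3444 genes. TTK, BUB1, BUB1B, CDK1 and NEK2 passed under each alternative run. With 333 to 568 counts per library, NEK2 had the fewest counts of the 10 kinases and so the widest counting error.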
